A study of Mus musculus with 11 samples.

Results

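The 8 genes described here encode the water channel aquaporin-1 (Aqp1), the caveolar coat (Cav1, Cav2, Cavin1 and Cavin2), the ATPases of the caveolar neck (Ehd2 and Ehd4) and the diaphragm protein of endothelial openings (Plvap). They were picked by name from the 27179 rows of a count table, and all 8 were among the 11949 genes tested. The set was selected on a readout of these same libraries: Aqp1 was already known to be called higher in met than in non-met endothelium. Values of the 8 genes in that contrast are therefore given as a description, with no P value. RNA-seq was performed on EMCNhi CD31hi endothelial cells (a marker pair that defines the type H capillaries of healthy bone) from BALB/c mice. Healthy, age-matched animals gave the control group (2 libraries from 2 mouse pools). Tumour-burdened animals carried 4T1.2 mammary cancer cells, a BALB/c-derived line labelled with red fluorescent protein that spreads from the mammary fat pad to bone. Red fluorescence guided the dissection of their bones, which gave marrow that held tumour (met, 3 libraries from 3 pools) and nearby marrow without it (non-met, 6 libraries from 4 pools). The study gave tumour cells through the mammary fat pad or the heart, and its sequencing methods do not name the route. All 3 groups went through the same sort for EMCN and CD31 after leukocytes and erythroid cells had been gated out. In the study's imaging, vessels within lesions also stained strongly for both markers, but lacked the osteoprogenitors and pericytes of type H vessels. A pool held 1 to 4 mice. Non-met 1 and 5 came from burdened pool 1, non-met 2, non-met 6 and met 1 from pool 2, non-met 3 and met 2 from pool 3, and non-met 4 and met 3 from pool 4. P values therefore measure the spread between libraries, some of which share a pool.

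Water and solutes leave the blood across the endothelial cell as well as between cells. Aquaporin-1 is a membrane pore that lets water follow osmotic gradients and is made by many capillary endothelia and by red cells. Caveolae are flask-shaped pits of the plasma membrane that are built from caveolins and cavins, are held at the neck by EHD ATPases, and carry or buffer membrane in endothelium. Plvap forms the diaphragms that span caveolae, fenestrae and transendothelial channels, and it is a known marker of permeable vessels such as marrow sinusoids.

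The genes lie on 6 chromosomes of GRCm38.p6, the build that corresponds to the mm10 build of the counts. Aqp1 (Entrez 11826) is at chr6:55336299-55348555, on the plus strand. Cav2 (12390, chr6:17281185-17289130) and Cav1 (12389, chr6:17306335-17341328) are neighbours on the plus strand of the same chromosome, with 17204 bases between them. Cavin2 (20324) is at chr1:51289126-51302960 on the plus strand, and Cavin1 (19285) at chr11:100956736-100970617 on the minus strand. Plvap (84094, chr8:71497753-71511806), Ehd2 (259300, chr7:15946963-15967535) and Ehd4 (98878, chr2:120089487-120154575) are on the minus strand. In the GENCODE vM21 annotation no other gene shared an exonic base with any of the 8. The counts were made with another annotation, for which overlaps were not examined. The RefSeq promoter windows of 7 of the 8 genes could be matched, and none was found for Plvap. The 250 bases before the transcription start are printed for Aqp1 and Cavin2, the pair whose met libraries lay outside the range of the non-met libraries, and for Cav1, the principal caveolin. Capitals mark matches, on either strand, to AGGAAG (the ETS core), TATAAA (the TATA box), AGATAA (the motif of GATA factors), CCACCC (the motif of KLF factors) or TGANTCA (AP-1).
Aqp1 (chr6:55336049-55336298, plus strand): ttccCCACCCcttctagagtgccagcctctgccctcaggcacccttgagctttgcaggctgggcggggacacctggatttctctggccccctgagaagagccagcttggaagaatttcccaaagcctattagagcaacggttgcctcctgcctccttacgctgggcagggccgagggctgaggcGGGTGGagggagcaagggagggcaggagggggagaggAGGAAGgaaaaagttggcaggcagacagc
Cavin2 (chr1:51288876-51289125, plus strand): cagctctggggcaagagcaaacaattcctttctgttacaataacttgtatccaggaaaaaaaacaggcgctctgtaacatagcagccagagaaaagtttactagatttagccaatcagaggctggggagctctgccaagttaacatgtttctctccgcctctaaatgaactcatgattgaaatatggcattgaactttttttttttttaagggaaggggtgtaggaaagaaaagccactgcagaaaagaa
Cav1 (chr6:17306085-17306334, plus strand): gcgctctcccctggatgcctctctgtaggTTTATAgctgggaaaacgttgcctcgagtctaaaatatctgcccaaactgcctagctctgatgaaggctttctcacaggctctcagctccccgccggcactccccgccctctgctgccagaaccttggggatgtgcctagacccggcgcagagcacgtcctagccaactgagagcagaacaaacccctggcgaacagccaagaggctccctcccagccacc
The Aqp1 stretch held CCACCC 2 times and AGGAAG 1 time, at 246, 66 and 29 bases before the start. The Cav1 stretch held TATAAA on the reverse strand, 221 bases before the start, and the Cavin2 stretch held none of the 5 motifs. In the 50 bases after the start, not printed, Cav1 and Cavin2 each held AGGAAG 1 time. In windows of 300 bases, which also take in 50 bases after the start, AGGAAG occurred in 35.4% of all 32851 promoter windows, CCACCC in 31.5%, TATAAA in 13.6%, AGATAA in 11.2% and TGANTCA in 7.81%. A match is a run of letters and was not tested for binding.

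The libraries held 5029771 and 19539761 counts in control, 733342 to 7683451 in non-met and 2547520 to 8771860 in met. A gene with 3 reads would stand at 0.154 to 4.09 CPM (counts scaled to a common library size), depending on the library. Of the sort markers, Pecam1 was at 972 to 3162 CPM over the 11 libraries and Emcn at 351 (non-met 4) to 1361 CPM (non-met 3). The summed level of 10 general endothelial genes, both included, was 8954 to 12924 CPM in control, 9963 to 17139 in non-met and 13728 to 16730 in met. Pecam1 encodes CD31 and was called higher in met than in non-met (log2 fold change 0.89, SE 0.134, adjusted P = 0.000455), whereas Emcn was not called there (0.49, SE 0.202, adjusted P = 0.593). The plain log2 means of Pecam1 were 11.38 in met and 10.68 in non-met. Its libraries overlapped, as met 1 (2297 CPM) was below non-met 3 (2427 CPM). Against control both sort markers were called higher in met, Pecam1 by 1.34 (SE 0.0149, adjusted P = 8.90e-27) and Emcn by 0.91 (SE 0.114, adjusted P = 1.68e-05). The plain log2 means were 11.38 in met and 10.10 in control for Pecam1, without overlap, and 10.01 and 9.22 for Emcn, with overlap, as met 1 (674 CPM) was below control 1 (695 CPM). These fitted values set few libraries against each other: control 1 and met 3 carried 99.9% and 99.8% of the weight of their groups for Pecam1, and 92.1% and 75.3% for Emcn. Markers of sinusoidal endothelium (8 of 8 tested, none of them a member) summed to 10477 and 12474 CPM in control, 7963 to 14993 in non-met and 6714 to 10283 in met. Il6st and Stab2 gave 41.2% of the mean sinusoidal sum. Between met and control, 2 of the 8 were called higher and 2 lower, against 1.20% of all genes in either direction. Markers of arterial endothelium (8 of 8 tested) summed to 214 and 569 CPM in control, 560 to 1007 in non-met and 802 to 1066 in met, so that met and control did not overlap in either sum. Ly6a and Efnb2 gave 64.3% of the mean arterial sum. Of the 8 arterial genes, 1 was called higher in met than in control, against the same 1.20% of all genes. Granulocyte markers (8 of 8 tested) summed to 397 to 4796 CPM in non-met but 35.3 to 203 in met and 77.8 to 359 in control, with S100a9 and S100a8 giving 70.3% of the mean sum. Stromal and osteolineage markers (7 of 8 tested) summed to 3597 to 9949 CPM in control, 839 to 3742 in non-met and 358 to 2006 in met, 83.9% of it Cxcl12, which endothelium also makes. Red-cell markers, of interest because red cells also make aquaporin-1, summed to 0 to 161 CPM over 9 genes, with Slc4a1 and Epb42 at 0 reads in every library. Mitochondrial mRNAs took 4.05% to 9.08% of the counts in met, 6.46% to 16.7% in non-met and 5.22% to 6.02% in control. Krt8, Krt18 and Krt19, keratins of epithelium, summed to over 5 CPM in all 3 met and 4 non-met libraries, and to less in non-met 1, non-met 2 and both controls. The part that any of these had in the differences described for the 8 genes was not tested. In sorted pools, fewer cells of a kind and less RNA per cell cannot be told apart.

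Aqp1 was the second most abundant of the 8 transcripts per length and the only one with every met library above every other library. It stood at 541 and 923 CPM in control 1 and 2. Among the non-met libraries it was 308 CPM at the lowest, 718 at the median and 1002 at the highest. The met libraries held 1158, 1753 and 1925 CPM. The lowest met library was thus just above the highest non-met library, non-met 2, which came from the same pool. On the log2 CPM scale the means were 9.47 ± 0.54 in control (SD, n = 2), 9.30 ± 0.67 in non-met (n = 6) and 10.62 ± 0.39 in met (n = 3), so that met exceeded non-met by 1.32, a 2.49-fold higher level. The weighted fit gave 1.39 (SE 0.267) for met against non-met and called the gene. This was the contrast that chose it. With the mouse pool as a fixed replicate block the fitted difference was 0.72, and with libraries scaled to endothelial genes it was 0.90, neither of them called. The quasi-likelihood test (1.23), DESeq2 (1.09), limma-trend (1.32), a term for 2 library sets split by keratin reads (1.39) and the second of those sets alone (1.25) did not call it either, while robust limma-trend did (1.32). Pool 1 gave no met library, and its non-met 1 (423 CPM) and non-met 5 (308 CPM) were the lowest non-met libraries. Both count in the plain difference of 1.32 but in no difference within a pool. Within pools, met exceeded non-met by 0.46 in pool 2, 0.89 in pool 3 and 1.40 in pool 4 (log2). For comparison, the libraries of non-met 1 and 5 from pool 1 differed by 0.46 and those of non-met 2 and 6 from pool 2 by 0.50, so the difference within pool 2 was no larger than that between libraries of 1 pool and group.

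Against control, Aqp1 was also called higher in met (log2 fold change 1.80, SE 0.0558, adjusted P = 3.46e-17), in a test that shares the met libraries with the contrast that chose the gene. The plain means differed by 1.16 (2.23-fold), and the exact two-sided permutation test over the 10 ways to assign the libraries gave P = 0.10, the smallest value it can give. The call did not hold with edgeR's quasi-likelihood test, DESeq2 or either form of limma-trend, the plain one and the robust one added after seeing the data, whose adjusted P values were 0.603 to 0.886 with differences of 1.02 to 1.16. Nor did it hold with the term for library sets (1.69, adjusted P = 0.344 in the weighted fit). Non-met and control libraries overlapped (fitted 0.41, SE 0.265, adjusted P = 0.398) and their plain means differed in the other direction, by -0.16.

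**Figure D1:**
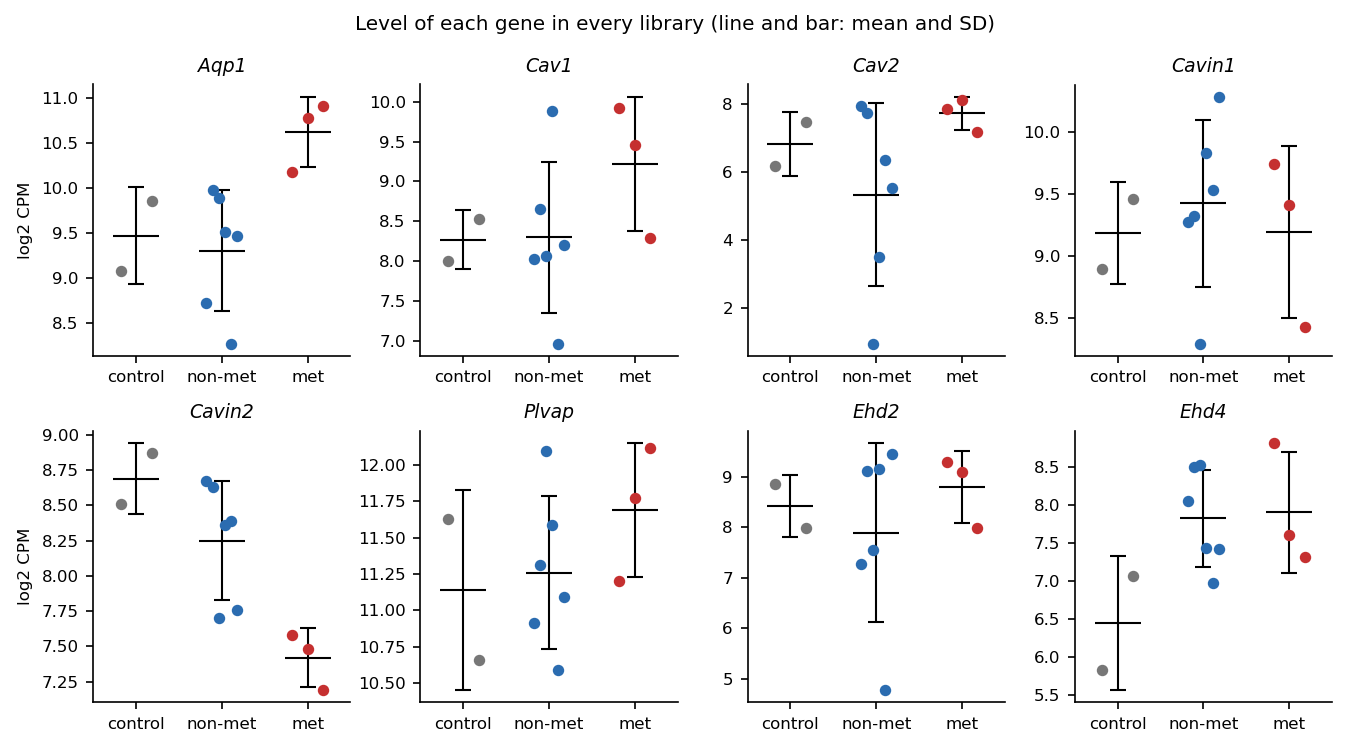
Level of each gene on the log2 CPM scale (y axis, each panel with its own range) in control (grey, 2 libraries), non-met (blue, 6) and met (red, 3). Points are libraries, and the line and bar are the mean and SD; the met points of Aqp1 lie between 10.18 and 10.91, above all others, and those of Cavin2 between 7.19 and 7.58, below all others.

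The fitted values rest very unevenly on the libraries, which matters for the abundant members. The weighted fit gives each library its own weight for each gene, from the depth, the level of the gene and a quality weight of the library. For Aqp1, met 3 carried 87.3% of the weight of the met group, met 2 carried 11.7% and met 1 carried 0.965%, while control 1 carried 98.5% of the control group. For Plvap, met 3 carried 99.6% of the met weight and non-met 2 carried 84.5% of the non-met weight. Over all 11949 genes the median share of met 3 was 33.7%, and 56 genes gave it over 80%. Met against non-met had 50 called genes, and 26 of them were among those 56. The fitted Aqp1 levels were 10.89 in met and 9.09 in control, close to the single libraries met 3 (10.91) and control 1 (9.08). Without met 3, the fitted Aqp1 difference was 1.17 from non-met, no longer called (nor was it without non-met 1, at 1.10), and 1.59 from control, still called (adjusted P = 2.31e-05). Without control 1, the difference from control was 1.10 (adjusted P = 0.00179). For the caveolin, cavin and EHD genes, met 3 carried 52% to 65.5% of the met weight. Control 1 carried 60.8% (Ehd4) to 95.3% (Cavin1) of their control weight, so some of their differences from control also rest mostly on 1 control library. Differences of plain means, or the plain group means, are given beside the fitted values of the 8 genes for this reason.

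**Figure D2:**
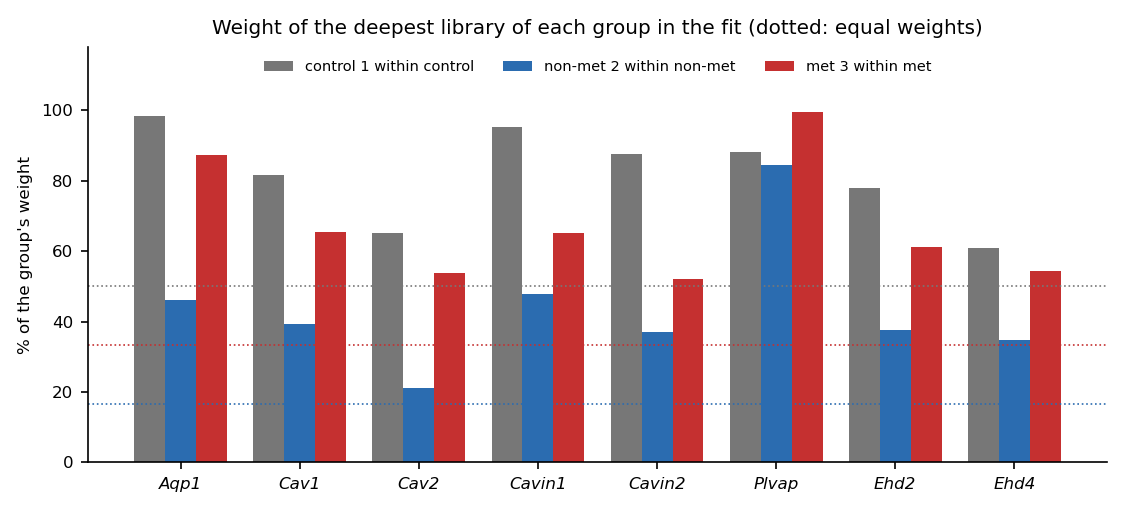
Share of its group's weight (y axis, per cent) that the library with most counts of each group had in the fit, for each gene: control 1 (grey), non-met 2 (blue) and met 3 (red). Dotted lines mark equal weights; met 3 holds 87.3% for Aqp1 and 99.6% for Plvap, and control 1 holds 98.5% for Aqp1.

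Cavin2 was lowest in met, where Aqp1 was highest. Cavin2 (also known as SDPR) is a cavin that binds phosphatidylserine and shapes the caveolar membrane. It stood at 365 and 468 CPM in control, at 207 to 407 CPM in non-met with a median of 332, and at 192, 178 and 145 CPM in met 1, 2 and 3. All 3 met libraries were below all 8 others, although met 1 was only just below non-met 3. The log2 means were 8.69 ± 0.25 in control (n = 2), 8.25 ± 0.42 in non-met (n = 6) and 7.42 ± 0.21 in met (n = 3). Met was thus 0.562-fold of non-met by plain means (-0.83 on the log2 scale), with a fitted -1.04 (SE 0.519) that did not pass the threshold. The fitted value was -0.63 with the fixed pool block, -0.58 with the term for library sets and -0.68 within set 2. Within pools, met was lower by 0.61, 0.22 and 1.17 in pools 2, 3 and 4, while non-met 2 and 6, from 1 pool, differed by 0.87 and non-met 1 and 5 by 0.28. Against control the difference was -1.27 by plain means and -1.22 in the fit (SE 0.439, adjusted P = 0.165; exact permutation P = 0.10, the smallest possible). With the term for library sets it was -0.50 (adjusted P = 0.905 in the weighted fit). Non-met against control was -0.18 in the fit (SE 0.308, adjusted P = 0.727) and -0.44 by plain means, with overlapping libraries. Adipocytes and mural cells are also rich in caveolae. Adipocyte markers (2 of 5 tested) summed to 139 and 474 CPM in control, 0.622 to 67.5 in non-met and 0 to 27.3 in met, and mural-cell markers (8 of 8 tested) to 856 and 962, 289 to 1088 and 437 to 1640 CPM. Adipoq gave 91% of the mean adipocyte sum and Kcnj8 53.7% of the mural sum. Megakaryocyte markers (2 of 6 tested) summed to 0 and 31.3 CPM in control, 0 to 57.7 in non-met and 42.6 to 100 in met. The part of any of these cells in the Cavin2 difference was not tested.

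Cavin1, the cavin that every caveola requires for its coat, did not follow Cavin2. It was at 474 and 705 CPM in control, 313 to 1245 CPM in non-met (median 689) and 856, 681 and 342 CPM in met. The met libraries lay within the non-met range without reaching its upper part, and met 3 was the lowest of them. The fitted difference of met from non-met was -0.45 (SE 0.286), beside -0.23 by plain means. From control it was -0.13 (SE 0.222, adjusted P = 0.845; exact permutation P = 1.00), and the plain means differed by 0.02. Non-met and control differed by 0.32 in the fit (SE 0.199, adjusted P = 0.387) and by 0.24 in plain means. The ratio of Cavin1 to Cavin2 was 0.38 and 0.59 in control, 0.59 to 2.53 in non-met and 1.23 to 2.16 in met, as log2 differences. Every met library was above both controls in this ratio, and met and non-met overlapped.

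Cav1, the caveolin without which endothelial caveolae do not form, had a higher mean in met, but the libraries overlapped. It was at 257 and 370 CPM in control, 125 to 944 CPM in non-met (median 280) and 970, 702 and 312 CPM in met. Non-met 4, the library with fewest counts, was close to met 1. The log2 means were 8.27 ± 0.37 in control (n = 2), 8.30 ± 0.95 in non-met (n = 6) and 9.22 ± 0.84 in met (n = 3). Met exceeded non-met by 0.92 in plain means and 0.42 in the fit (SE 0.394). The fitted value was 1.27 without met 3, 0.19 without met 2 and 0.70 without non-met 2. Within pools the direction was not the same: met was higher by 1.49 and 1.39 in pools 2 and 3 and lower by 1.60 in pool 4. Against control the fit gave 0.61 (SE 0.278, adjusted P = 0.310; exact permutation P = 0.300) and the plain means 0.95. Of the 27 alternative analyses of met against control, 1 called Cav1, the fit without met 3 (1.48, adjusted P = 0.00356), and without control 1 the value was 0.18, without met 2 0.37. Non-met and control differed by 0.20 in the fit (SE 0.399, adjusted P = 0.767) and by 0.03 in plain means.

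Cav2, which needs Cav1 to reach the cell surface, was the most variable member. It was at 71.5 and 180 CPM in control and at 234, 282 and 145 CPM in met. In non-met it ranged from 1.56 to 245 CPM, a 158-fold span. Non-met 3 and non-met 4 held only 5 and 6 Cav2 reads, although the same libraries held 860 and 522 Cav1 reads. The log2 means were 5.33 ± 2.70 in non-met (n = 6) and 7.73 ± 0.49 in met (n = 3). The fitted difference of 2.25 had an SE of 1.16, beside 2.40 in plain means, and met 1 and met 3 lay within the non-met range while met 2 was above it. Without non-met 3 the fitted difference was 1.06, and with the term for library sets it was 3.72. Met was higher by 1.24, 7.20 and 3.70 in pools 2, 3 and 4, of which the last 2 values rest on those 5 and 6 reads. Against control, Cav2 differed by 0.97 in met (SE 0.596, adjusted P = 0.503) and by -1.28 in non-met (SE 1.16, adjusted P = 0.529), beside 0.90 and -1.50 in plain means. Without control 1 the difference of met from control was 0.13, without control 2 it was 1.48, and with the term for library sets it was 4.92. That of non-met from control was -0.05 without non-met 3, and ran from -2.12 to -0.05 as libraries were left out.

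Plvap was the most abundant of the 8 per length and was called higher in met, on libraries that overlapped throughout. It stood at 3168 and 1615 CPM in control, at 1538 to 4387 CPM in non-met with a median of 2357, and at 2354, 3488 and 4438 CPM in met. Met 3 was close to non-met 3, and met 1 was below 3 of the 6 non-met libraries. The log2 means were 11.14 ± 0.69 in control (n = 2), 11.26 ± 0.53 in non-met (n = 6) and 11.69 ± 0.46 in met (n = 3). The plain difference of met from non-met was 0.43, whereas the fit gave 0.85 (SE 0.0950), a value close to met 3 minus non-met 2. The quasi-likelihood test, DESeq2 and both forms of limma-trend did not call it, with differences of 0.25 to 0.43, nor did the fits with a term for library sets (0.31), within set 2 (0.26), with endothelial scaling (0.16) or without met 3 (0.48). With the mouse pool as a fixed replicate block the fitted difference turned to -0.23. Within pools 2, 3 and 4 the differences were 0.00, -0.33 and 0.53. Against control the fit called it higher in met (0.60, SE 0.131, adjusted P = 0.0169; 0.55 by plain means), and the exact permutation test gave P = 0.400. The call was lost with the quasi-likelihood test (adjusted P = 0.929), DESeq2 and both forms of limma-trend (1.00 in each). In the weighted fit the call was also lost, at a difference no smaller than 0.60, with library-size scaling (0.74, adjusted P = 0.271), RLE scaling (0.67, adjusted P = 0.184) and no low-count filter (0.93, adjusted P = 0.114). With endothelial scaling the difference itself was smaller (0.25, adjusted P = 0.706), and with a term for library sets the difference turned to -0.12 (adjusted P = 0.976). In this comparison the sort markers were called higher in met than in control. The sinusoidal sum was lower in met, though its called genes went both ways, as given above. The part of these markers in the Plvap difference was not tested. Leaving out 1 library also ended the call in 4 cases of the weighted fit. The difference was then larger without control 1 (1.13, adjusted P = 0.250) and without non-met 3 (0.75, adjusted P = 0.102), and smaller without control 2 (0.28, adjusted P = 0.900) and without met 3 (0.38, adjusted P = 0.387). Non-met did not differ detectably from control (-0.25, SE 0.161, adjusted P = 0.388), and the plain means differed in the other direction, by 0.12.

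**Figure D3:**
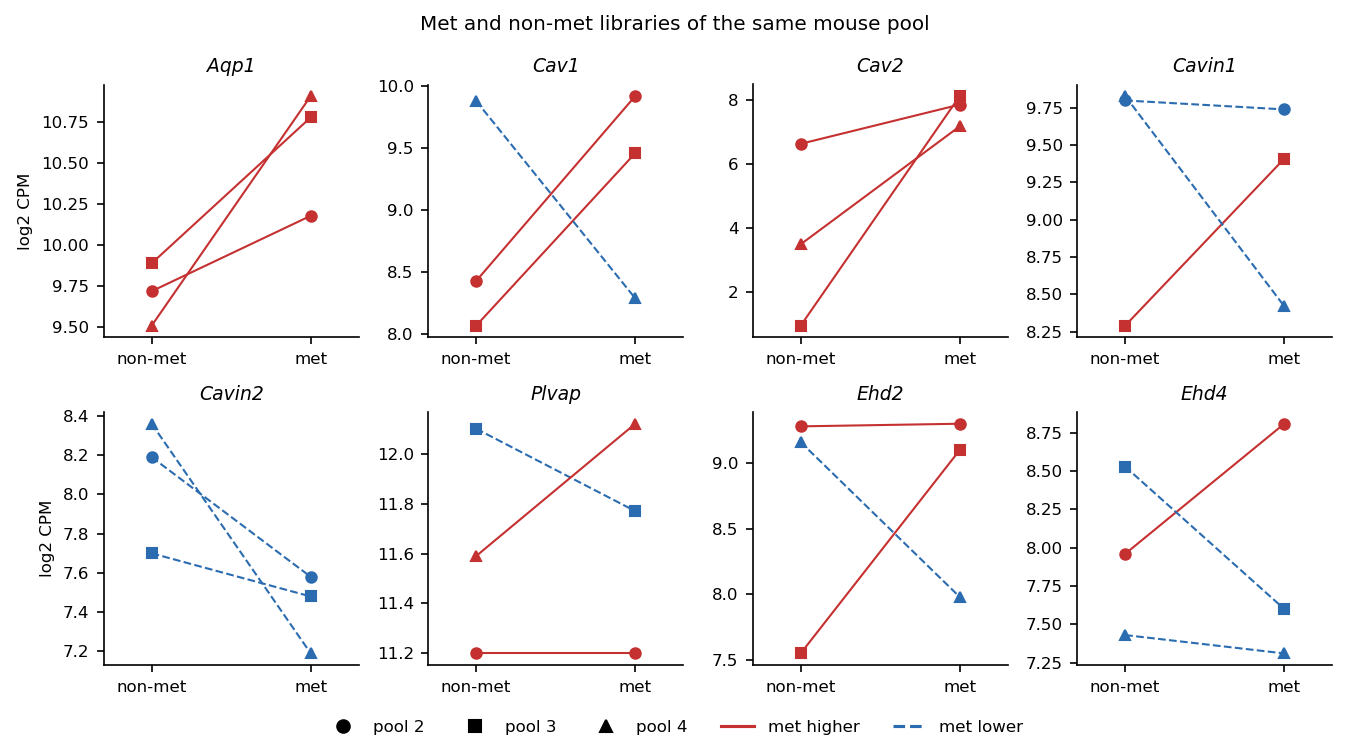
Log2 CPM (y axis, each panel with its own range) of the met library and of the non-met library, or the mean of 2 non-met libraries in pool 2, of the same mouse pool. Solid red lines mark pools in which met was higher and dashed blue lines those in which it was lower; Aqp1 and Cav2 were higher in met in each of the 3 pools, Cavin2 was lower in each, and the other 5 genes went both ways.

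The ATPases at the caveolar neck showed no difference that passed the test. Ehd2, which holds caveolae at the plasma membrane, was at 460 and 253 CPM in control, 27 to 694 CPM in non-met and 630, 547 and 252 CPM in met. Its non-met libraries spanned a 25.7-fold range, the widest after that of Cav2, with non-met 5 (51 reads) lowest. The fitted difference of met from non-met was 0.33 (SE 0.511), beside 0.90 in plain means, and ran from 0.05 (without non-met 1) to 1.05 (without met 3) as libraries were left out. From control it was -0.23 (SE 0.392, adjusted P = 0.845). The interval of the latter ran from -1.04 to 0.58, and the plain means differed in the other direction, by 0.38. Non-met and control differed by -0.56 in the fit (SE 0.501, adjusted P = 0.53) and by -0.53 in plain means. Ehd4, a related ATPase of endosomes and caveolae, was lowest in control, at 56.2 and 133 CPM, against 125 to 370 CPM in non-met and 448, 193 and 158 CPM in met. Its 3 met libraries were all above both controls, and non-met 5 alone among the non-met libraries was below control 2. Ehd4 had the largest fitted difference of non-met from control among the 8 (1.82, SE 0.604, adjusted P = 0.132; exact permutation P = 0.107) and differed by 1.26 between met and control (SE 0.586, adjusted P = 0.326; exact permutation P = 0.20), beside 1.38 and 1.46 in plain means. Without control 1 these fitted values were 1.05 (adjusted P = 0.597) and 0.53 (adjusted P = 0.919) in the weighted fit. Met and non-met differed by -0.56 in the fit (SE 0.516) and in the other direction in plain means, by 0.09. With no library-level weights the difference of Ehd4 between non-met and control passed, with adjusted P = 0.0401 in the weighted fit.

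Counted over the set, 2 of the 8 genes (Aqp1 and Plvap) were called between met and non-met, where 0.418% of all genes were called, and nothing is read from that count because the contrast chose Aqp1. All met libraries were above all non-met libraries for 1 member (Aqp1; 1.54% of all genes) and below them for 1 member (Cavin2; 0.444% of all genes). Between met and control, 2 of 8 were called, again Aqp1 and Plvap, against 1.20% of all genes. Met libraries were all above control for Aqp1 and Ehd4, against 8.43% of all genes, and all below for Cavin2, against 12.3%. With 2 control libraries such separation is frequent across the genome. Between non-met and control, edgeR's voomLmFit called 0 of 8, against 0.636% of all genes. The quasi-likelihood test, DESeq2 and limma-trend called 0 as well, and 1 member, Ehd4, had an unadjusted P under 0.05 in the weighted fit. No member separated non-met from control, against 1.26% of all genes with every non-met library higher and 5.03% with every one lower. The median fitted difference of the 8 was 0.37, 0.61 and 0.01 in the 3 comparisons, beside 0.08, -0.09 and -0.33 over all genes tested, each of which changed sign under some of the alternatives. The comparisons share libraries in pairs and are not independent.

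**Figure D4:**
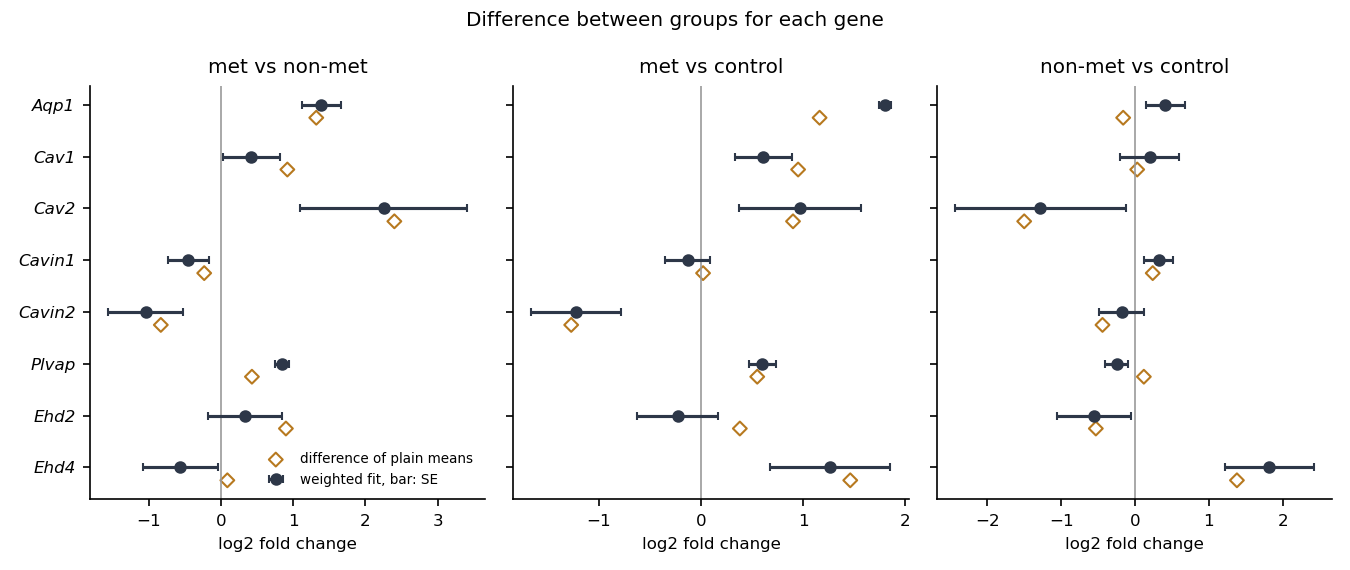
Log2 fold change (x axis) of each gene in 3 comparisons: filled circles are the weighted fit with its SE, open diamonds the difference of plain means. Aqp1 lies at 1.39 from non-met and 1.80 from control in the fit, and at 1.32 and 1.16 by plain means; Plvap lies at 0.85 and 0.43 from non-met.

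Levels were also compared per transcript length, as reads per kilobase of transcript, scaled to depth (RPKM), which allows the genes to be ordered within a group. Plvap led in each group, with means of 1186, 1293 and 1700 RPKM in control, non-met and met, and its lowest library was always above the highest library of the next gene. It ranked 19th, 24th and 17th among the genes tested. Aqp1 was next, with 265, 249 and 584 RPKM. In met its lowest library, at 420 RPKM, was above the highest of the gene that followed, Cav1, at 351. In control and non-met Aqp1 overlapped Cavin1. Cavin2 was the fourth of the 8 in control (136 RPKM), the sixth in non-met (103) and the last in met (56.2). Cav1 was the sixth in control (113 RPKM), the fourth in non-met (138) and the third in met (239). Except for Cav1 above Cav2 in control, neighbours from the third place down overlapped in every group, so their order was not resolved. Even Ehd4 in control, the lowest mean at 27.9 RPKM, was above 77.2% of the genes tested.

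**Figure D5:**
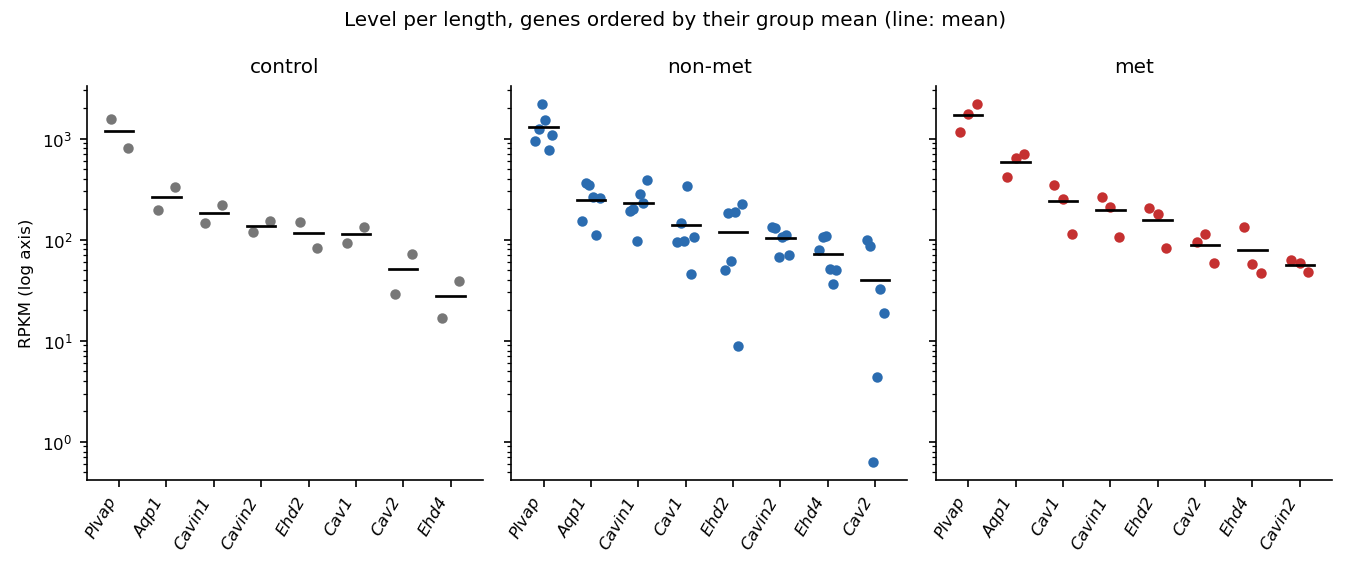
RPKM (y axis, log scale) of the 8 genes in control, non-met and met, ordered within each group by the mean (black line), with 1 point per library. Plvap and Aqp1 lead in each group; Cavin2 goes from the fourth place in control (136 RPKM) to the last in met (56.2 RPKM), and the points of most neighbours overlap.

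Ratios within a library hardly depend on how libraries are scaled. The ratio of Aqp1 to Cavin2, as a log2 difference, was 0.57 and 0.98 in control, -0.13 to 2.19 in non-met and 2.59 to 3.72 in met, so that every met library was above every other. The pair was chosen after these values were seen. Aqp1 relative to Plvap ran from -1.20 to -0.99 in the met libraries without reaching the non-met values of -2.32 to -1.34, while the control values of -2.55 and -0.81 lay on either side of met. The ratio of Cav1 to Cavin1 was -0.13 to 0.18 in met and -0.93 and -0.88 in control, and ranged from -2.56 to 0.06 in non-met. Taken against the summed level of 10 general endothelial genes, with a median of 15327 CPM in met and 11081 in non-met, the differences of met from non-met were smaller for Aqp1 (0.98) and Plvap (0.10), and the libraries of Aqp1 then overlapped. Against control the Aqp1 difference relative to that sum was 0.66, also with overlap, since control 2 (-3.28) was above met 1 (-3.57). From non-met, the differences of Cavin2 (-1.17) and Cavin1 (-0.56) were larger, with overlap, and Cavin2 was lower than control by 1.77 without overlap.

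The other genes of caveolae, 13 of 16 tested, gave 0 called between met and non-met by the weighted fit (0.418% of all genes), 1 between met and control (1.20%) and 1 between non-met and control (0.636%). That gene was in both cases Insr, the insulin receptor, which resides in caveolae of several cell types. It was 8.47 ± 0.32 log2 CPM in control (n = 2), 10.30 ± 0.55 in non-met (n = 6) and 9.82 ± 0.19 in met (n = 3). It was higher in met (1.34, SE 0.225, adjusted P = 0.00100) and in non-met (1.81, SE 0.211, adjusted P = 1.43e-05) than in control, with no overlap of libraries, as was the case for 8.43% and 1.26% of all genes. DESeq2 and limma-trend also called Insr in non-met against control and the quasi-likelihood test did not, and none of the 3 called it in met against control. Between met and non-met, where 2 list genes had an unadjusted P under 0.05 and the other tools called 0, the largest differences of the list belonged to genes with large errors, Flot1 (1.35, SE 1.10, adjusted P = 0.808) and Nostrin (1.03, SE 2.53, adjusted P = 0.956). Cavin3, a cavin that binds protein kinase C, was the 1 listed gene with all met libraries above all non-met libraries (0.96, SE 0.350, adjusted P = 0.482), against 1.54% of all genes. Cav3 and Cavin4, the muscle forms, had 0 reads in every library, and Mfsd2a, which restrains caveolar transport in brain endothelium, had at most 2. The medians of the list were 0.22, 0.75 and -0.05 in the 3 comparisons, beside the 0.08, -0.09 and -0.33 of all genes.

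Aqp1 was the only aquaporin with over 3 reads in all 11 libraries. Of 11 other family members, Mip, Aqp2, Aqp3, Aqp8 and Aqp12 had 0 reads in every library, and Aqp5, Aqp6, Aqp9 and Aqp11 exceeded 3 reads in 1 library each. Aqp7, an aquaglyceroporin of capillaries and fat, exceeded 3 reads in 5 libraries, and Aqp4, the astrocyte water channel, in 2. Neither was called in any comparison by voomLmFit or by the other tools, and 0 of the 2 had an unadjusted P under 0.05. Between met and non-met, Aqp4 differed by -3.94 (SE 2.82, adjusted P = 0.779) and Aqp7 by 1.67 (SE 2.45, adjusted P = 0.913). Against control the values were -4.90 (SE 3.60, adjusted P = 0.594) and 4.19 (SE 3.12, adjusted P = 0.600) in met, and -0.96 (SE 3.13, adjusted P = 0.859) and 2.52 (SE 2.64, adjusted P = 0.584) in non-met.

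Among 29 genes that signal to endothelial permeability, 28 were tested. Between met and non-met 3 were called, all higher: Tie1, an orphan receptor of the angiopoietin system (0.96, SE 0.149, adjusted P = 0.000736), Ptprb, the endothelial phosphatase VE-PTP (1.14, SE 0.172, adjusted P = 0.000503), and Cdh5, the junction protein VE-cadherin (0.56, SE 0.112, adjusted P = 0.0159). This was 3 of 28, against 0.418% of all genes, and met 3 carried 83.3%, 93.2% and 95% of the met weight for the 3 genes. The plain log2 means of Tie1 were 9.43 ± 0.36 in control (n = 2), 9.93 ± 0.57 in non-met (n = 6) and 10.45 ± 0.52 in met (n = 3). Those of Ptprb were 10.07 ± 0.22, 10.22 ± 0.52 and 10.92 ± 0.31, and those of Cdh5 10.36 ± 0.56, 10.48 ± 0.29 and 10.97 ± 0.09. The steps between these means are smaller than the fitted differences of met from non-met. Tie1 and Cdh5 are also in the endothelial sum described above. Only Cdh5 had all met libraries above all non-met libraries, against 1.54% of all genes. The quasi-likelihood test, DESeq2 and limma-trend called 0 of the 28 in this comparison and in those with control. Between met and control 4 were called higher and 2 lower, against 1.20% of all genes in either direction. The higher ones were Tie1 (1.19, SE 0.0930, adjusted P = 5.19e-09), Ptprb (1.01, SE 0.0362, adjusted P = 5.56e-16), the Rap1 effector Rasip1 (0.68, SE 0.123, adjusted P = 0.00270) and Cdh5 (0.12, SE 0.0231, adjusted P = 0.00426), whose plain means lay further apart than that. Rasip1 had plain means of 9.19 ± 0.36 in control and 9.69 ± 0.19 in met. The lower ones were Nrp1, a VEGF co-receptor (-1.01, SE 0.211, adjusted P = 0.0110), whose libraries did not overlap (9.49 ± 0.10 in control and 8.77 ± 0.43 in met), and Kdr, the main VEGF receptor (-0.48, SE 0.0620, adjusted P = 2.21e-05). The Kdr libraries overlapped, and the plain mean was 10.68 ± 0.18 in met (n = 3) and 10.60 ± 0.59 in control (n = 2), so the fit and the plain means differed in direction. Control 1 carried 100% of the control weight for Kdr and Cdh5, to 3 digits, and 94.8% to 99.8% for the other 4. All met libraries were above both controls for 12 of the 28 genes and below them for 4, against 8.43% and 12.3% of all genes. Between non-met and control, voomLmFit called 0 of the 28, against 0.636% of all genes, and 10 had an unadjusted P under 0.05. The share of all genes with such an unadjusted P is not given, so nothing is read from counts of this kind. The largest differences of non-met from control were those of Krit1, of the cerebral cavernous malformation complex (-5.06, SE 1.37, adjusted P = 0.0770), and Adm, the peptide adrenomedullin (-4.14, SE 1.98, adjusted P = 0.291). The medians of the list were 0.33, 0.36 and 0.11, beside 0.08, -0.09 and -0.33 for all genes.

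Across the 11 libraries, the genes whose log2 CPM was most like that of Aqp1, among 3565 genes with a mean of at least 5, were Map4k3 (Pearson's r = 0.849), Sparcl1 (0.843), Cmip (0.834), 1110004F10Rik (0.808) and Dnajc3 (0.807). Those most like Cav1 were Wwtr1 (0.880), Gvin1 (0.879), Myo10 (0.857), Eif4g2 (0.854) and Degs1 (0.823). Over the 8 control and non-met libraries alone, the values were 0.77 to 0.91 for the Aqp1 list and 0.78 to 0.93 for the Cav1 list. Among the 8 genes themselves the highest Pearson's r was that of Cav1 and Ehd2 (r = 0.75, Spearman's rho = 0.69) and the lowest that of Aqp1 and Cavin2 (r = -0.66, rho = -0.65). By rho, Aqp1 and Cav1 were equally high (0.69), and Cavin2 and Plvap were lowest (-0.66). Cav1 and Cav2, whose proteins assemble together, gave r = 0.10 (rho = 0.30), with the non-met 3 and 4 values of Cav2 included. These are descriptions over 11 libraries that share groups, pools and depth, and carry no test.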

How the data were processed

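RNA was sequenced from sorted EMCNhi CD31hi endothelial cells with a low-input SMART-Seq kit, which amplifies cDNA and carries no molecular identifiers. Per the study's methods, the authors mapped read pairs to the mm10 build using Rsubread, and featureCounts assigned them to Entrez genes of the annotation it ships with; whether counting used strand is not given in the sources used here, and the authors removed 1 library with low mapping. The deposited counts are whole reads per gene, not normalised, and also give each row a length. The 8 genes, the gene lists and the motifs were chosen with earlier results of these data known, and support for a pattern already known is not independent.

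Symbols came from RefSeq (25275 rows) and GENCODE (18). Rows that were unnamed (1886), ribosomal (35) or predicted (1794) were left out, 1.94% to 15.7% of the counts. After filterByExpr (minimum count 10), 11949 genes were scaled by TMM and fitted with voomLmFit (edgeR 4.0.16, limma 3.58.1, R 4.3.3) with sample weights in 1 model of 3 groups and 11 libraries, with Benjamini-Hochberg adjustment over all genes and a threshold of 0.05. The model was also run on simulated counts, drawn with the same dispersion for every gene and without mouse pools. That run is not used as support for any call. Log2 CPM used a prior count of 2. RPKM was computed here from the counts and lengths. Exact permutation tests were two-sided, on log2 CPM.

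Named genes were all 8 members in every library, list genes called in a contrast (or the 2 with the largest fold change if none was called), and the 5 genes most correlated with Aqp1 and with Cav1; Cavin3, and the genes listed at 0 or few reads, were named after their values were seen. The alternatives were edgeR's quasi-likelihood test, DESeq2 1.42.0, limma-trend, other scaling and filters, no sample weights, the mouse pool as a replicate block, libraries of 1 pool summed, 2 groups alone and each library left out. Robust limma-trend, a term for 2 library sets (summed Krt8, Krt18 and Krt19 above 5 CPM or not), set 2 alone, scaling to 10 endothelial genes and libraries of at least 2000000 counts were added after seeing the data. Pairing by mouse pool comes from the labels: met and non-met libraries of a pool are from the same animals. Their deviations from the group means had Spearman correlations of -0.00239, -0.0204 and 0.0217 over all genes in pools 2, 3 and 4.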

Additional observations from a re-analysis of the deposited data

How the results depend on the processing

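Between met and non-met it went from 2 to 0 with the quasi-likelihood test, DESeq2, limma-trend, the mouse pool as a fixed replicate block, a term for 2 library sets, set 2 alone and endothelial scaling, to 1 (Aqp1) with robust limma-trend, and ranged from 0 (without met 3) to 2 when each library was left out. Without non-met 1 it was 1 (Plvap). Between met and control it went from 2 to 0 with the quasi-likelihood test, DESeq2, both forms of limma-trend and the term for library sets, to 1 (Aqp1) with library-size scaling, RLE scaling, no low-count filter and endothelial scaling, and ranged from 1 to 2 with libraries left out (1 without control 1, control 2 or non-met 3). Between non-met and control it went from 0 to 1 (Ehd4) without sample weights. Genes called over the whole table ranged from 2 (limma-trend) to 326 (DESeq2) between met and non-met, beside 50, and from 4 (term for library sets) to 429 (no low-count filter) between met and control, beside 143; between non-met and control they ranged from 8 (limma-trend) to 266 (DESeq2), beside 76. The median of all genes between met and non-met, 0.08, ran from -0.41 (no low-count filter) to 0.36 (without met 1), with -0.09 under RLE and -0.29 under endothelial scaling. Between met and control, -0.09 ran from -0.54 (endothelial scaling) to 0.48 (no low-count filter). Between non-met and control, -0.33 ran from -0.94 (without control 2) to 0.56 (no low-count filter), with -0.54 under library-size scaling, -0.79 in limma-trend, 0.22 in DESeq2 and 0.20 without control 1. The share of called genes that were higher in met than in non-met, 66%, ran from 0% (limma-trend and set 2 alone) to 75.9% (without met 2), with 6.44% in DESeq2, 11.1% with the fixed pool block, 14.3% with endothelial scaling and 53.3% with RLE scaling.

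In 29 alternatives of met against non-met, Aqp1 (0.72 to 1.83) and Cav2 (1.00 to 3.72) were higher and Cavin2 lower (-1.35 to -0.58) in each, and Plvap turned to -0.23 with the fixed pool block. For Cav2 the value was 1.00 in DESeq2, 1.14 in the quasi-likelihood test and 1.43 with no sample weights, beside 2.25 in the main fit. Cavin1 turned to 0.22 (fixed pool block) and 0.26 (without met 3), Cav1 to -0.08 and Ehd2 to -0.13 (endothelial scaling), and Ehd4 to 0.13 (quasi-likelihood), 0.03 (DESeq2) and 0.09 (both limma-trend fits), none of them called. As a random replicate block, the mouse pool left both counts of members at 2. Directions in the comparisons with control changed as follows. Met against control, Cavin1 turned to 0.09 (quasi-likelihood), 0.02 (both limma-trend fits), 0.59 (without met 3) and 0.16 (library sets) (-0.67 to 0.59 with libraries left out). Plvap turned to -0.12 (library sets). Ehd2 turned to 0.42 (quasi-likelihood), 0.37 (DESeq2), 0.38 (both limma-trend fits), 0.01 (libraries of 1 pool summed), 0.24 (2 groups alone), 0.45 (without control 1), 0.47 (without met 3, the highest with libraries left out, the lowest being -0.45), 0.37 (library sets) and 0.08 (libraries of at least 2000000 counts). Non-met against control, Aqp1 turned to -0.09 (quasi-likelihood), -0.08 (DESeq2), -0.16 (both limma-trend fits) and -0.35 (without control 1; highest with libraries left out 0.68). Cav1 turned to -0.24 (without control 1) and -0.04 (without non-met 2; highest 0.28), Cav2 to 1.21 and Cavin2 to 0.08 (library sets), and Cavin1 to -0.23 (without control 1) and -0.01 (libraries of at least 2000000 counts). Plvap turned to 0.12 (quasi-likelihood and both limma-trend fits), 0.20 (DESeq2), 0.34 (no low-count filter), 0.66 (without control 1; lowest with libraries left out -0.49) and 0.10 (endothelial scaling). Ehd2 turned to 0.03 (quasi-likelihood), 0.16 (DESeq2) and 0.10 (without control 1; lowest -1.19). None of these turned values passed the threshold, and the cause was not tested. There were 2 control libraries, and the shallowest library held 733342 counts. The smallest difference that could be detected was not measured, so a difference that was not called is not shown to be absent. Where a group kept 1 library, that library was assumed to vary like the other groups.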
